A study of Mus musculus with 8 samples.

Results

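The Ly6 surface antigen family was followed here through 7 mouse genes, Ly6a, Ly6c1, Ly6c2, Ly6d, Ly6e, Ly6i and Ly6k, chosen because earlier results of these data showed Ly6d higher and Ly6i lower in the AdLeXis group. Their probes were taken by the gene name printed in the scanner files. Of the 7 genes, 6 had a probe on the array and none of the 55681 probes carried the name Ly6c2, which is therefore named but not measured. The 6 genes had 7 probes in all, 1 each and 2 for Ly6c1, and they stand among 23999 genes tested. All 7 probes were well above background on all 8 arrays and all 7 passed the filter on dim probes.

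Ly6 proteins are small molecules built on a three-finger fold held by disulfide bonds, and most are tied to the cell surface by a glycosylphosphatidylinositol (GPI) lipid anchor. Several of the mouse genes lie side by side on chromosome 15, are used as markers of blood cell lineages, and are known to be raised by interferons. In liver their transcripts can come from resident and recruited leukocytes, from endothelial cells and from hepatocytes, and in RNA of whole liver fewer cells of a type and less RNA per cell cannot be told apart.

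The samples were livers of bl6 mice, 12 weeks old and on chow, with RNA taken on day 6 after an adenovirus was given. The AdLeXis group (4 samples) received a virus for LeXis, a long non-coding RNA, and the AdGFP group (4 samples) received a virus for green fluorescent protein, so that an adenovirus is common to both. The comparison asks which liver transcripts differ when LeXis is raised. Samples were grouped by the treatment tag, with which titles and series design go, whereas the protocol text speaks of a control construct and one directed against Raly. Separate animals are not stated, so p-values measure the spread between the samples alone and that spread may be technical.

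RNA was hybridised to 1-colour Agilent arrays, 1 per sample, all on 1 slide with 1 scan time, with every AdLeXis array in row 2 and every AdGFP array in row 1 of that slide. Slide row and group cannot be told apart. As a check of the labels, 3 probes for a lincRNA region beside Abca1 on chromosome 4, the locus of LeXis, were read, since none of the probes bears the name LeXis. Probe A_30_P01022419 averaged 10.49 ± 0.40 in AdLeXis and 0.78 ± 0.20 in AdGFP on the log2 scale (SD, n = 4 each), and stood well above background on none of the AdGFP arrays. The other 2 probes averaged 9.70 and 9.95 in AdLeXis, and each stood well above background on 1 of 4 arrays in AdGFP. The AdLeXis arrays were brighter, with an unscaled 75th percentile between 381 and 448 on AdLeXis arrays and between 220 and 297 on AdGFP arrays. No spot was saturated. Over all genes, 2094 were higher (8.73%) and 2104 lower (8.77%) in AdLeXis at an adjusted p under 0.05 (limma, Benjamini-Hochberg over all genes), and with each array's median in place of its 75th percentile these counts became 1157 and 2682.

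The probes that carry the results share little sequence with each other, and the first 30 of the 60 bases of each are shown for that reason, 5′ to 3′ as the scanner files give them. The order is the order along the chromosome.

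Ly6d A_51_P343517: caggacaggaagatgtggcttgtgtcccag

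Ly6k A_51_P521052: gaaaaacccatgcccttcctattttataag

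Ly6e A_55_P2031436: tatcattgtacccaccttgtactctgttca

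Ly6i A_55_P2087118: taaagagccgttcttgccatcctttctgcc

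Ly6a A_51_P265495: tatgagttatagaagctccaaggtgggagt

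Ly6c1 A_55_P2064771: tattatagtatcaccatccacacataagta

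Ly6c1 A_55_P1961499: agcagttacctgccgcgcctctgatggatt

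Over the whole 60 bases, the 21 pairs of member probes had longest common runs of 4 to 6 bases and at most 27 identical positions when laid side by side without gaps. No other probe on the array shared a run of 20 bases with any of them. The GC content of the probes ran from 38.3% for Ly6a to 55.0% for Ly6d and Ly6e. The Ly6i and Ly6k probes were at 41.7% and both Ly6c1 probes at 45.0%. The part of probe composition in the members' differences was not tested.

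Ly6c1 and Ly6c2 together encode the antigen Ly6C, and the genes are near copies. The promoter sequences that RefSeq gives for both (build GRCm38.p6, 300 bases around the transcript start, minus strand) are shown because they let a reader see how alike these genes are. Capitals mark the longest run that the windows share, 20 bases. They lie at chr15:75048788-75049087 for Ly6c1 and at chr15:75111922-75112221 for Ly6c2.

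Ly6c1 promoter: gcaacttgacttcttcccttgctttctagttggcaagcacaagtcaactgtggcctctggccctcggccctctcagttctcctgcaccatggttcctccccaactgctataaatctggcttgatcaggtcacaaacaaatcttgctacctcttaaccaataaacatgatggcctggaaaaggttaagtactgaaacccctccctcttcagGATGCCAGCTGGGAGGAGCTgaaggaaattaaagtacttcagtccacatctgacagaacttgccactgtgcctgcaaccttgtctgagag

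Ly6c2 promoter: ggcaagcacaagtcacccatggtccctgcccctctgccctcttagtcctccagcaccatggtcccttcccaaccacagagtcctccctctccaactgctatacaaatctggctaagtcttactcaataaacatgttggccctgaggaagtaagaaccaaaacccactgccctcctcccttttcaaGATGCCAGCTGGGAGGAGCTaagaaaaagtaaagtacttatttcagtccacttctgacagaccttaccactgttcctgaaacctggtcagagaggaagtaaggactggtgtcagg

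When aligned with gaps allowed, these windows had the same base at 214 of the 260 positions that paired 2 bases (82.3%). Bases set against a gap are not counted. RefSeq gives a second window for each gene, starting at 75048614 for Ly6c1 and at 75111888 for Ly6c2. The 4 pairings of windows ran from 69.8% (of 248 paired positions) to 92.8% (of 180). The pairings do not set the same stretches against each other, so this range is not one of likeness alone. The transcripts are likewise close, so reads of either Ly6c1 probe may include Ly6c2 RNA, and the Ly6c1 values below are uncertain to that extent. For the other members no promoter window was matched.

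All values that follow are log2 processed intensities scaled on the 75th percentile of each array, and differences are AdLeXis minus AdGFP on that scale, with the standard error of the limma fit over all genes. The members were picked from this contrast, so their differences are a description and carry no test.

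Ly6d was the member with higher values in AdLeXis. It encodes a GPI-anchored antigen used to mark lymphoid progenitors committed to the B cell lineage, and it is also made by squamous epithelia. Its probe (NM_010742, chr15:74592551-74592610 in mm9, reverse strand) read 13.01, 13.47, 12.05 and 13.77 on the 4 AdLeXis arrays, and 10.66, 11.48, 10.81 and 10.99 on the 4 AdGFP arrays. The groups did not overlap: every AdLeXis array was above every AdGFP array, AdLeXis 4 the highest and AdLeXis 3 the lowest of their group, and 0.58 separated AdLeXis 3 from the highest AdGFP array. The means were 13.08 ± 0.75 in AdLeXis and 10.98 ± 0.36 in AdGFP (SD, n = 4 each), a difference of 2.09 (SE 0.36), or 4.27-fold. In processed intensity, as deposited and unscaled, Ly6d gave 9544, 15330, 5777 and 18510 on AdLeXis arrays and 1118, 2564, 1548 and 1350 on AdGFP arrays. By size of positive difference Ly6d ranked 88 of 23999 genes.

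Ly6i, a less studied relative of Ly6a and Ly6c1, was the member with the largest difference in the other direction. Its probe (NM_020498, chr15:74810484-74810543, reverse strand) read 5.86, 5.92, 6.03 and 5.78 in AdLeXis, and 8.10, 7.35, 7.69 and 7.81 in AdGFP. The groups did not overlap, and the AdLeXis arrays lay closer together than the AdGFP arrays, of which AdGFP 1 was the highest. Ly6i averaged 5.90 ± 0.11 in AdLeXis and 7.74 ± 0.31 in AdGFP (SD, n = 4 each), a difference of -1.84 (SE 0.15), or 3.58-fold lower, rank 16 among all falls. With a normexp background correction followed by quantile scaling the difference was -0.96, still without overlap. The probe is dim, at 67.0 to 88.96 units of processed intensity on AdLeXis arrays and 147 to 189.5 on AdGFP arrays.

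Ly6a encodes Sca-1, which marks haematopoietic stem cells and is also carried by activated T cells and by endothelium. Its probe (NM_010738, chr15:74825553-74825612, reverse strand) read 12.11, 12.06, 11.93 and 11.79 in AdLeXis, and 13.83, 13.44, 13.15 and 13.19 in AdGFP. Again every AdLeXis array was below every AdGFP array, with AdLeXis 4 the lowest and AdGFP 1 the highest of the 8. Means were 11.97 ± 0.14 in AdLeXis and 13.40 ± 0.31 in AdGFP (SD, n = 4 each), a difference of -1.43 (SE 0.16), or 2.70-fold lower.

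Ly6c1 encodes one of the Ly6C proteins, known from endothelial cells, monocytes and memory T cells. The probe used in the gene fit (NM_001252055, chr15:74875495-74875554, reverse strand) read 13.98, 14.01, 13.83 and 13.66 in AdLeXis, and 15.40, 14.96, 14.93 and 14.92 in AdGFP. Here AdGFP 1 stood apart above the other 3 AdGFP arrays, and the groups did not overlap. The means were 13.87 ± 0.16 in AdLeXis and 15.05 ± 0.23 in AdGFP (SD, n = 4 each), a difference of -1.18 (SE 0.14), or 2.27-fold lower. The second Ly6c1 probe (NM_001252058, chr15:74877785-74877844, reverse strand) read 8.38, 8.47, 8.30 and 8.28 in AdLeXis, and 9.59, 9.52, 9.78 and 9.70 in AdGFP. It differed by -1.29 (SE 0.092 in the fit over all probes), or 2.45-fold lower, with AdGFP 3 rather than AdGFP 1 the highest. Thus the Ly6c1 probes gave the same direction and like sizes, while the array that stood apart on the first did not do so on the second.

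Ly6e, whose product is an interferon-inducible antigen of thymocytes and many other cells, known for limiting the entry of coronaviruses, had the smallest difference of the lower members. Its probe (NM_001164036, chr15:74789592-74789651, forward strand) read 15.35, 15.55, 15.34 and 15.23 in AdLeXis, and 16.17, 16.12, 16.16 and 15.98 in AdGFP. The arrays of each group lay within 0.32 of each other and the groups did not overlap. Means were 15.37 ± 0.13 in AdLeXis and 16.11 ± 0.09 in AdGFP (SD, n = 4 each), a difference of -0.74 (SE 0.09), or 1.67-fold lower. Unscaled, the difference was 0.0084 and the groups overlapped, with 48330 to 64960 units of processed intensity in AdLeXis and 42950 to 63950 in AdGFP, whereas the median difference of all genes without scaling was 0.74. The 436 genes within 0.5 of the level of Ly6e had a median difference of -0.09.

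Ly6k, whose product sits on testicular germ cells, was the one measured member whose groups overlapped. Its probe (NM_029627, chr15:74627529-74627588, reverse strand) read 3.94, 5.66, 5.38 and 5.50 in AdLeXis, and 5.04, 4.90, 4.64 and 4.30 in AdGFP. AdLeXis 1 was the lowest of all 8 arrays and the other 3 AdLeXis arrays were the highest. Means were 5.12 ± 0.79 in AdLeXis and 4.72 ± 0.32 in AdGFP (SD, n = 4 each), a difference of 0.40 (SE 0.37); without AdLeXis 1 it was 0.79 (SE 0.18). The probe read 13.14 to 68.43 units of processed intensity over the 8 arrays.

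**Figure D1:**
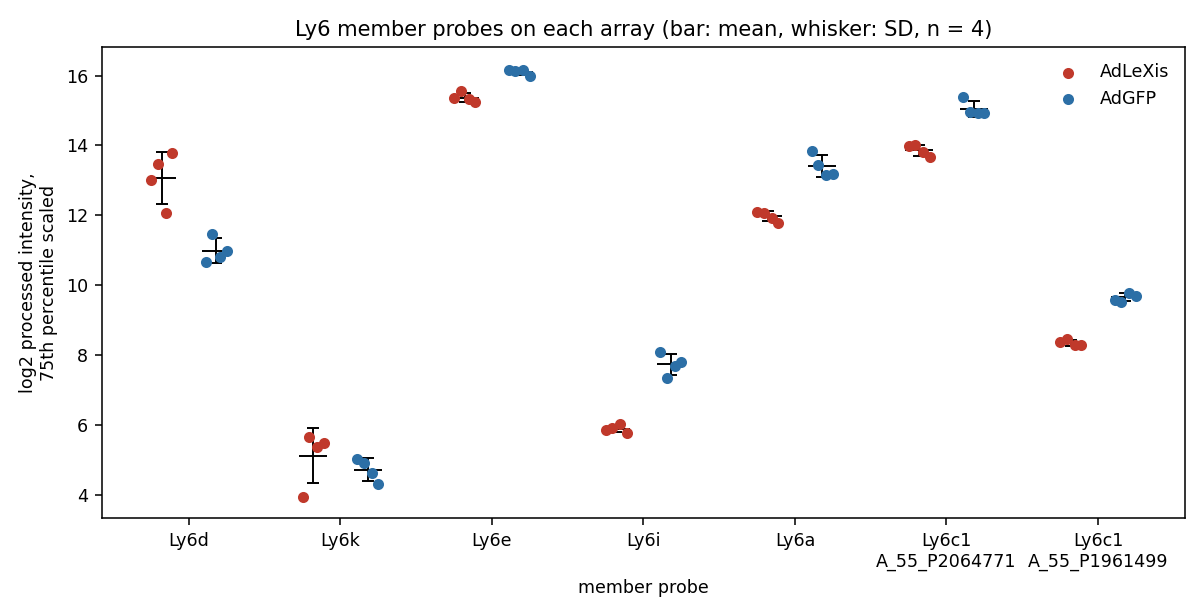
Log2 processed intensity scaled on the 75th percentile (y axis) of each member probe (x axis) on every array, AdLeXis left of AdGFP, with bars for the mean and whiskers for the SD (n = 4). Ly6d lies higher in AdLeXis (mean 13.08 against 10.98), the probes of Ly6e, Ly6i, Ly6a and Ly6c1 lie lower without overlap, and the Ly6k groups overlap through 1 AdLeXis array at 3.94; levels of different probes are not comparable.

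Of the 6 members in the fit, 1 was called higher and 4 lower. Over all genes 8.73% were called higher and 8.77% lower, and nothing is read from the members' counts because the rule used this contrast. In 1 member the AdLeXis arrays were all above the AdGFP arrays and in 4 all below, where 12.4% and 12.3% of all genes did so. The median difference of the members was -0.96, and that of all genes was -0.002. The same 1 and 4 calls were made under every one of 18 alternatives except the fit without AdLeXis 1, which also called Ly6k higher. These alternatives reuse the arrays and the contrast by which the members were picked. They describe the effect of processing and are no independent support.

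The likeness of the members over the 8 arrays was described by the distance between their values. This distance includes the group difference by which they were picked and does not show likeness within the groups. Taking each gene's 8 values minus their mean, Ly6a and Ly6c1 were closest to each other, with a root mean square distance of 0.15, followed by Ly6c1 and Ly6e at 0.26 and Ly6a and Ly6i at 0.30. Ly6d and Ly6i were the farthest pair, at 2.07. Within the groups the members did not share one order of arrays, since among AdLeXis arrays Ly6a was highest on AdLeXis 1, Ly6c1 and Ly6e on AdLeXis 2, and Ly6i on AdLeXis 3. AdLeXis 4 had the highest Ly6d value of its group and the lowest values of Ly6a, Ly6e, Ly6i and both Ly6c1 probes, and AdGFP 1 had the lowest Ly6d value of its group and the highest values of Ly6a, Ly6e, Ly6i and the first Ly6c1 probe.

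The way arrays were scaled moved the sizes of these differences, and leaving scaling out turned the sign of 1 of them, Ly6e. Without scaling the differences were 2.84 for Ly6d, -1.09 for Ly6i, -0.69 for Ly6a, and -0.44 and -0.55 for the Ly6c1 probes. Set against the unscaled median of all genes, 0.74, each of these members keeps its side, and so does Ly6e at 0.0084. This comparison nearly repeats the scaling, which brings that median to -0.002, so it is no separate check. Under quantile scaling Ly6e was at -0.58, and under normexp Ly6a was at -1.12.

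**Figure D2:**
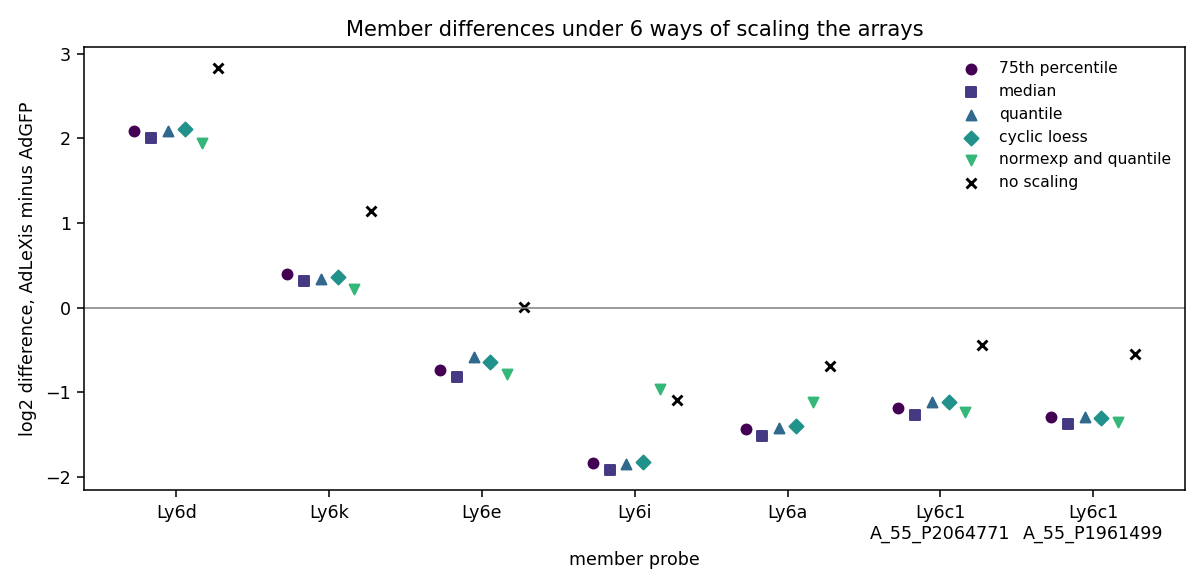
Log2 difference, AdLeXis minus AdGFP (y axis), of each member probe (x axis) under 6 ways of scaling the arrays, one symbol each. Ly6d stays above 0 and the probes of Ly6i, Ly6a and Ly6c1 stay below 0 under all 6; Ly6e reaches 0.0084 without scaling, where the median of all genes is 0.74.

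Genes whose 8 mean-centred values lay nearest to those of a member were sought among 15141 named genes. For Ly6d they were Igsf21 (distance 0.20), Xrra1 (0.32) and Ttc41 (0.33), where the median gene was at 1.19. Igsf21, an adhesion molecule of the immunoglobulin superfamily, averaged 4.02 in AdLeXis and 2.09 in AdGFP. Its AdGFP level is low: the Psca probe, at 2.63 in AdGFP, was well above background on 1 of 4 AdGFP arrays. On how many arrays the Igsf21 probe was so is not given here. For Ly6i they were Cxcl9 (0.19), Cib3 (0.20) and Fabp5 (0.20), where the median gene was at 0.96. Cxcl9, a chemokine induced by interferon gamma that attracts T cells, averaged 13.08 in AdLeXis and 14.93 in AdGFP, a difference of -1.84. Fabp5, a fatty acid binding protein, averaged 12.00 in AdLeXis and 14.01 in AdGFP. These genes were selected for their likeness over the same 8 arrays, so the likeness is a description.

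The member probes span 285.293 kb of chromosome 15, and the window widened by 100 kb on each side (mm9, 74492551 to 74977844) held 33 probes, 21 of them kept. Of 14 genes in this window that are no members, 0 were called higher (3 at an unadjusted p under 0.05) and 3 lower, at an adjusted p under 0.05 (limma, with 8.77% of all genes called lower). The first was I830127L07Rik, whose current symbol is Ly6a2, at 370 kb from the Ly6d probe, beyond Ly6c1. It read 2.86, 3.17, 2.61 and 2.07 in AdLeXis, and 4.53, 4.04, 5.23 and 4.59 in AdGFP. The groups did not overlap, and the probe was well above background on 2 of 4 AdLeXis arrays and on 4 of 4 AdGFP arrays. I830127L07Rik fell by 1.92 (SE 0.29, limma adjusted p = 0.00436), and by 0.45 under normexp and quantile scaling (limma adjusted p = 0.00507). The second was BB157357, a transcript known by an identifier alone, at 160 kb from the Ly6d probe, which fell by 0.76 (limma adjusted p = 0.00259). The third was Slurp2, a secreted relative, at -19.3 kb from the Ly6d probe, which fell by 0.66 (limma adjusted p = 0.0388).

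The other 11 genes of the window were not called. Nearest to Ly6d, Lynx1, a membrane-bound modulator of nicotinic receptors, differed by 0.36 and Lypd2 by -0.19. Slurp1, a secreted relative whose human gene is mutated in a palmoplantar keratoderma, differed by -1.30 (SE 0.46, limma adjusted p = 0.0870) and was well above background on 2 of 4 AdLeXis arrays. Around Ly6k, BC171937 differed by 0.62, Gml2 by -0.28 and Ly6m by 0.18. At the far end beyond Slurp1 lay Them6 at -0.13, Psca at -0.06, Jrk at 0.09, Arc at 0.40 and a lincRNA probe at 0.65. Slurp2 and Lynx1 overlap in the genome, so their probes may share transcripts.

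**Figure D3:**
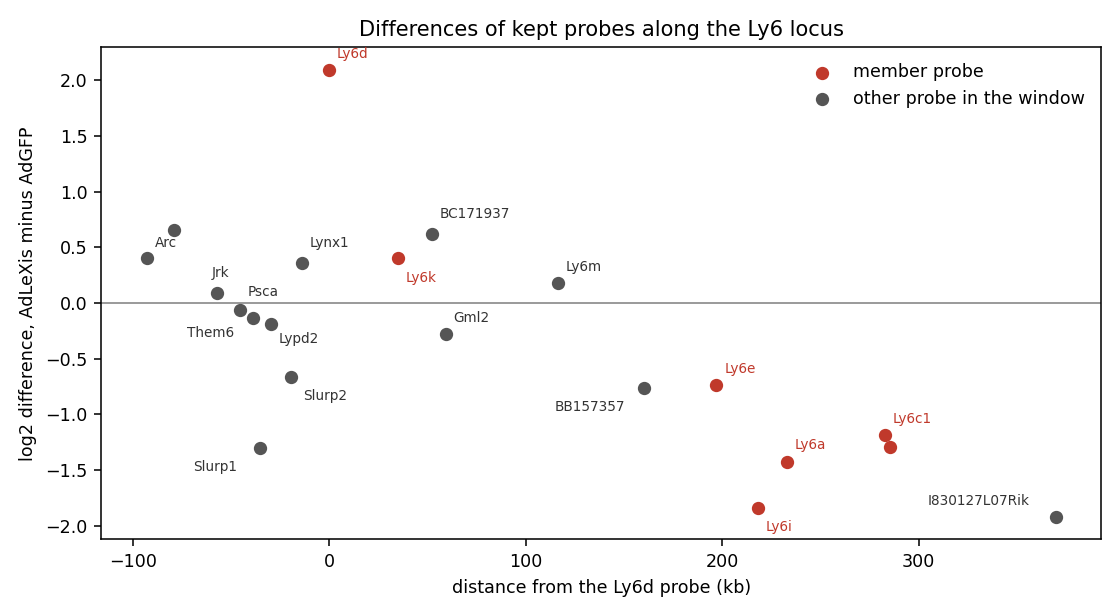
Log2 difference, AdLeXis minus AdGFP (y axis), of the 21 kept probes in the window against the distance from the Ly6d probe in kb (x axis), members in red. The Ly6d probe stands at 2.09, and the probes from BB157357 at 160 kb to I830127L07Rik at 370 kb all lie below 0.

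Among other Ly6 and urokinase receptor (uPAR) relatives, 35 of 37 listed genes had a probe and 21 were in the fit. Of these 21, 0 were called higher (1 at an unadjusted p under 0.05) and 2 lower (limma, with 8.77% of all genes called lower), and their median difference was -0.19. I830127L07Rik (Ly6a2), which fell by 1.92 (limma adjusted p = 0.00436), was not among the listed genes. It is therefore not part of this count or median. Plaur, the urokinase receptor of leukocytes and migrating cells, averaged 8.24 ± 0.23 in AdLeXis and 8.76 ± 0.12 in AdGFP (SD, n = 4 each), fell by 0.53 (SE 0.13, limma adjusted p = 0.0249) and missed the threshold under 6 of 18 alternatives. Slurp2 averaged 6.86 ± 0.32 in AdLeXis and 7.52 ± 0.24 in AdGFP (SD, n = 4 each), with overlapping groups, missed it under 9, and differed by -0.26 under normexp. Neither passed without AdLeXis 3, without AdLeXis 4, without AdGFP 2, without AdGFP 3, or without a filter on dim probes.

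The relatives used as markers of blood cells and vessels gave the following values. Ly6g, the neutrophil antigen, averaged 7.96 in AdLeXis and 8.03 in AdGFP, a difference of -0.07 (SE 0.13, limma adjusted p = 0.769). Gpihbp1, which holds lipoprotein lipase on capillary endothelium, averaged 12.45 in AdLeXis and 12.59 in AdGFP, a difference of -0.14 (SE 0.13, limma adjusted p = 0.485). Cd59a, an inhibitor of the complement membrane attack complex, differed by -0.23 (SE 0.07, limma adjusted p = 0.0650) and its paralogue Cd59b by -0.22 (SE 0.33). Ly6f differed by -0.54 (SE 0.23, limma adjusted p = 0.156). The remaining relatives in the fit were not called either, with Ly6g6e at -0.52, Ly6g6d at -0.39, Lypd5 at -0.35, Ly6g6c at -0.06, Lypd6 at -0.02, Spaca4 at 0.08, Ly6g5b at 0.12 and Ly6h at 0.38. Of the 14 relatives with a probe outside the fit, 9 were well above background on no array.

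GPI anchor synthesis, on which most of these proteins depend to reach the surface, was covered by 29 tested genes, counting Gpld1, which cleaves finished anchors. Of these, 4 were called higher (13.8%), 2 lower (6.90%), and 23 were not called, with a median difference of 0.25. Among all genes 8.73% were called higher and 8.77% lower. Before adjustment, 14 of the 29 rose and 4 fell with a limma p under 0.05, Gpld1 among those that fell. The genes not called are therefore not shown to be unchanged. Pigq, part of the complex that starts the anchor, rose by 0.41 (SE 0.08, limma adjusted p = 0.0116), and Pigb, a mannosyltransferase, rose by 0.80 (limma adjusted p = 0.0225). In AdGFP the Pigb probe stood well above background on 1 of 4 arrays. Pgap3, which remodels the anchor's lipid, rose by 0.39 (limma adjusted p = 0.0333), and Mppe1, which trims the anchor's glycan, fell by 0.40 (limma adjusted p = 0.0308). The higher calls numbered 1 with median scaling and 7 under normexp, and 1 without AdLeXis 2, AdLeXis 4 or AdGFP 1. Of 18 alternatives, 9 changed the call of Pgap3, 9 that of Mppe1, 6 that of Pigb and 1 that of Pigq.

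Interferon-stimulated genes, the class to which Ly6a, Ly6c1 and Ly6e are usually assigned, were lower in AdLeXis. Of 35 tested, 0 were called higher (limma, also 0 at an unadjusted p under 0.05) and 26 lower, with 8.77% of all genes called lower, and their median difference was -0.97, where all genes had -0.002. Oas1a, a sensor of double-stranded RNA, fell by 1.06 (SE 0.11, limma adjusted p = 0.00104), Oasl2 by 1.80 (limma adjusted p = 0.00202), Oas3 by 0.97 (limma adjusted p = 0.00345), and Irf7, the transcription factor that amplifies type I interferon, by 1.14 (limma adjusted p = 0.00238). The mean over the list was 11.62, 11.68, 11.32 and 11.06 on AdLeXis arrays, and 12.33, 12.42, 12.35 and 12.17 on AdGFP arrays. AdLeXis 4, which had the lowest Ly6a, Ly6c1, Ly6e and Ly6i values, also had the lowest list mean, whereas AdGFP 1, with the highest Ly6a and Ly6i values, was not the highest array of its group in the list. The part of the interferon genes in the members' differences was not tested.

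Markers of leukocytes were set beside the lower members. Of 26 T and NK cell markers tested, 0 were called higher (1 at an unadjusted p under 0.05) and 21 lower (8.77% of all genes), with a median difference of -0.93. Tbx21, the T-bet transcription factor, fell by 1.07 (limma adjusted p = 6.21e-04), Nkg7, of cytotoxic granules, by 1.09 (limma adjusted p = 6.24e-04), Il2rb, the shared receptor chain for interleukins 2 and 15, by 1.21 (limma adjusted p = 7.19e-04), and Prf1, perforin, by 1.04 (limma adjusted p = 9.12e-04). The summed level of the list, as scaled intensity, was 18340 to 22230 on AdLeXis arrays and 34210 to 39270 on AdGFP arrays. Within the groups the order differed from that of Ly6a and Ly6i: AdLeXis 4 had a list mean of 8.06, the second highest of its group, and AdGFP 1 had the lowest of its group, 8.72.

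Of 23 monocyte and neutrophil markers, 0 were called higher (2 at an unadjusted p under 0.05), 7 lower and 16 not called, with 8.77% of all genes called lower and a list median of -0.23. Ccr2, the receptor that brings Ly6C-high monocytes out of the marrow, fell by 0.82 (SE 0.11, limma adjusted p = 0.00237), Ms4a6c by 0.74 (limma adjusted p = 0.00434), Cx3cr1, of patrolling monocytes, by 0.61 (limma adjusted p = 0.00451) and Plac8 by 0.58 (limma adjusted p = 0.00701). The neutrophil genes S100a8 at -0.22 and Retnlg at 0.42 were not called and were picked here after their values were seen. Values of the list's other neutrophil genes are not given, so no contrast between monocytes and neutrophils is read from these. The summed level was 179800 to 235000 in AdLeXis and 282200 to 311300 in AdGFP. The list mean on the log2 scale overlapped, at 8.57 to 8.95 in AdLeXis and 8.91 to 9.09 in AdGFP. Among AdLeXis arrays this list mean was highest on AdLeXis 1 and lowest on AdLeXis 4, the same extremes as for Ly6a. Among AdGFP arrays it was highest on AdGFP 3, whereas Ly6a and Ly6i were highest on AdGFP 1. Mpo and Ngp were outside the fit.

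Markers of the cell types in which Ly6d is known were set beside it. Of 17 B and plasma cell markers, 0 were called higher (also 0 at an unadjusted p under 0.05) and 4 lower (8.77% of all genes), while 13 were not called and the median was -0.29. Prdm1 fell by 0.74 (limma adjusted p = 0.00716), Cd22 by 0.58 (limma adjusted p = 0.0111), Irf4 by 0.96 (limma adjusted p = 0.0142) and Cd72 by 0.45 (limma adjusted p = 0.0265). Their summed level was 6172 to 6970 in AdLeXis and 7337 to 8883 in AdGFP, and Ebf1 and Tnfrsf17 were well above background on no array. Of 24 squamous epithelium markers, 15 were tested, 2 called higher (13.3%) and 1 lower (6.67%), near the 8.73% and 8.77% of all genes, with a median of -0.01. Evpl, a cornified envelope protein, rose by 0.76 (limma adjusted p = 0.00494), Krt10 by 0.53 (limma adjusted p = 0.00700), and Krt13 fell by 0.86 (limma adjusted p = 0.00883). For the squamous list the summed level was 17570 to 20060 in AdLeXis and 14940 to 16330 in AdGFP, without overlap. Its list mean on the log2 scale overlapped, at 6.44 to 6.81 in AdLeXis and 6.62 to 6.70 in AdGFP. Krt1, Krt6a, Krt17, Dsc3, Dsg1a, Sprr1b and Ivl were well above background on no array.

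For the vascular cells that carry Ly6a and Ly6c1, 22 endothelial markers were tested, with a median of 0.03. Of these, 1 was called higher and 0 lower (limma). Without adjustment 1 was higher and 2 lower at p under 0.05. Among all genes the shares called were 8.73% higher and 8.77% lower. A list of 22 is too short to tell its counts from those shares, so the markers are not shown to be unchanged. Sox18, an endothelial transcription factor, rose by 0.72 (limma adjusted p = 0.0105). The summed level was 40870 to 45590 in AdLeXis and 40910 to 44980 in AdGFP, so the groups overlapped. The liver label was checked on 20 hepatocyte markers, whose list mean was 16.57 to 16.76 in AdLeXis and 16.95 to 17.08 in AdGFP. Of these, 0 were called higher (limma, also 0 at an unadjusted p under 0.05) and 12 lower, with 8.77% of all genes called lower. Alb, serum albumin, fell by 0.61 (limma adjusted p = 0.00434), Ahsg by 0.58 (limma adjusted p = 0.00410), Serpina1c by 0.57 (limma adjusted p = 0.00477) and Cyp2e1 by 0.45 (limma adjusted p = 0.00479). Under quantile scaling 1 was called higher and 1 lower, and under normexp 2 and 2. No gene stands in more than 1 list and no member stands in any. What these cell markers contribute to the members' differences was not tested.

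**Figure D4:**
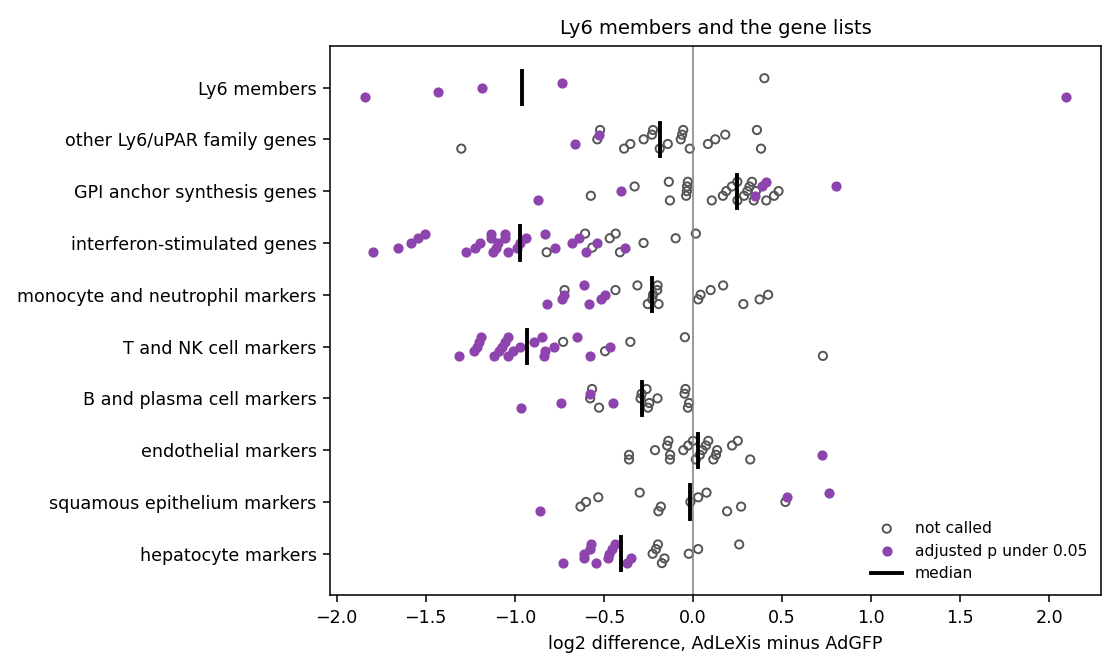
Log2 difference, AdLeXis minus AdGFP (x axis), of each tested gene in each list (rows), filled where the adjusted p was under 0.05, with a bar at the median. The members lie at both ends of the axis, interferon genes and T and NK cell markers centre at -0.97 and -0.93, and endothelial markers centre at 0.03.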

How the data were processed

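Total RNA of 8 mouse liver samples was measured on 1-colour Agilent arrays. The deposited scanner files hold processed spot intensity on a linear scale, background-subtracted and detrended within each array but not across arrays, per the file headers. The software was Agilent Feature Extraction, with version 11.5.1.1 in the headers and 11.5.1.11 in the submitters' processing notes. A series-wide table that the authors deposited repeats this intensity (largest relative difference 0). Flags for background, saturation and outliers come from the same files. Probe coordinates are those of mm9 per the file headers.

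From the deposited intensity, log2 values were computed and scaled by subtracting the 75th percentile of non-control spots on that array and adding back the mean of these percentiles. Outlier spots were left out and spots of a probe averaged. A probe stayed in if 4 or more arrays had it well above background and 2 or more of each group measured it (34450 probes). Where a gene had several, the one of highest mean was used, giving 23999 genes. Names were updated through the RefSeq table of GRCm38.p6, used for names and promoter windows only (27656 probes by accession, 3401 by symbol, 24624 keeping the file's name). Groups were compared with limma 3.58.1 in R 4.3.3 (lmFit, eBayes, two-sided, Benjamini-Hochberg over all genes, threshold 0.05); the fit was tested on simulated data. The number of arrays limits the precision.

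The members and the gene lists were chosen with earlier results of these data known. Genes named are all members, all relatives in the fit, all genes with a kept probe in the window around the members, up to 4 genes of smallest p per other list, and the 3 genes nearest in pattern to Ly6d and to Ly6i; others are said to have been picked later. Alternatives were median, quantile and cyclic loess scaling, normexp background (offset 50), the filter on dim probes, the mean over a gene's probes, the variance model, a replicate block and leaving out each array.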

Additional observations from a re-analysis of the deposited data

Results flagged for a closer look

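In 2 of 14 sets of 4 arrays (7 member probes in each group), 1 array lay far from the other 3 by Dixon's ratio, the gap to the nearest array over the whole range, with a critical value of 0.829. Chance flags about 1 in 20 such sets. For Ly6k, AdLeXis 1 at 3.94 lay below the other AdLeXis arrays with a ratio of 0.836, and without it the difference was 0.79 in place of 0.40. For the Ly6c1 probe A_55_P2064771, AdGFP 1 at 15.40 lay above the other AdGFP arrays with a ratio of 0.933, and without it the difference was -1.07 in place of -1.18.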

How the results depend on the processing

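The members' calls are given with the results above. Scaling on array medians called 1157 genes higher over all genes and 1 GPI anchor gene higher. Quantile scaling called 4 relatives lower, and 1 hepatocyte marker higher and 1 lower. The normexp setting called 1 relative higher and 1 lower, 7 GPI anchor genes higher, 2 endothelial markers higher, 1 squamous marker higher, and 2 hepatocyte markers higher and 2 lower. Without a filter on dim probes, 0 relatives were lower (limma), and 2 GPI anchor genes were higher and 0 lower. The mean over a gene's probes called 1 hepatocyte marker higher, the trend model 1 endothelial marker lower, and the robust model 1 GPI anchor gene lower. With the replicate number as a block, 1 relative was lower, and 2 GPI anchor genes were higher and 1 lower, while over all genes 1522 were higher and 1628 lower; arrays of the same number correlated in their deviations at 0.0134, 0.0652, 0.117 and 0.00156, 2 of 4 best with their own number, so the numbers were not taken to pair the samples. Leaving out 1 array in turn called 1204 (without AdLeXis 4) to 2060 genes higher and 1284 (without AdLeXis 4) to 2070 lower over all genes, and without AdLeXis 2 there were 1326 higher and without AdGFP 1 there were 1364 lower. For the lists it called 0 to 1 relatives higher and 0 to 4 lower, 1 to 5 GPI anchor genes higher and 0 to 2 lower, 0 to 1 monocyte and neutrophil markers higher, 0 to 1 T and NK cell markers higher, 0 to 1 endothelial markers lower, 1 to 2 squamous markers lower, 22 to 27 interferon genes lower and 17 to 20 T and NK cell markers lower. The unscaled values, an alternative chosen after seeing the data, turned the Ly6e difference to 0.0084. Causes of these changes were not tested, apart from what each setting changes by construction.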
